A study of Mus musculus with 24 samples.

Results

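The transcript forms of Smarcc2 and Smarcc1 were followed through all 24 libraries of a series on cultured mouse cortical neurons. Both genes were taken by symbol, 2 of 55177 genes, with every annotated transcript, 6 of Smarcc2 and 9 of Smarcc1, 15 of 141429 in all. A form is 1 annotated transcript, named by its GENCODE number. The unit TPM counts transcripts per fixed library total and corrects for length, so levels of different forms were compared in TPM only. The unit CPM is a normalised read count per fixed library total, with no correction for length.

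Smarcc2 and Smarcc1 encode paralogous scaffold subunits of BAF-type (SWI/SNF) chromatin remodelling complexes, which use ATP to move nucleosomes. Each complex holds a dimer of these proteins at its core, of 1 paralog or of both, onto which other subunits assemble. In the developing cortex both are expressed, and the balance between them is known to affect progenitor division and cortical size.

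Neurons came from mouse cortex at embryonic day 16.5, and per the protocols the cortex of each embryo was 1 biological replicate. Every culture was silenced overnight with 1 µM tetrodotoxin, a sodium channel blocker, and 100 µM D-AP5, an NMDA receptor blocker. Resting cultures were then harvested, and depolarized cultures first received 50 mM KCl for 30 min. At 7 days in vitro (DIV7), wild-type neurons in 0.1% DMSO gave 2 resting and 2 depolarized libraries, made from poly(A) RNA. At DIV18, ribosomal RNA was depleted from total RNA to make the libraries, and all neurons carried a CRISPR guide. Neurons with a non-targeting guide (NT) gave 2 resting and 2 depolarized libraries, and their labels name no vector. Neurons with a guide against Smarcc2 (KO) and an empty vector gave 3 resting and 3 depolarized libraries. KO neurons with an addback of wild-type (WT) Smarcc2 gave 2 resting and 3 depolarized libraries. KO neurons with an addback of Smarcc2 with glutamate in place of serine (S586E) gave 3 resting libraries, and with alanine there (S586A) 2 depolarized libraries. The labels give neither the transcript form, the sequence nor the promoter of the addback constructs, nor the place that the guide cuts.

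Smarcc2 lies on chromosome 10 of build GRCm38, at chr10:128459248-128490482 on the plus strand, and Smarcc1 on chromosome 9, at chr9:110117708-110240178 on the plus strand. Smarcc2 has 3 full-length coding forms. Smarcc2-201 (4533 bases, 28 exons) codes for 1099 codons and Smarcc2-203 (4032 bases, 28 exons) for 1213. Smarcc2-202 (4562 bases, 29 exons) codes for 1130 codons. Smarcc2-202 alone holds exon 18 whole, a cassette of 93 bases, or 31 codons, that keeps the reading frame (chr10:128481682-128481774). The retained-intron form Smarcc2-204 reaches into its first 23 bases. Smarcc2-203 alone has 342 further coding bases (chr10:128488018-128488359), and it lacks the distal 766 bases of 3′ UTR that Smarcc2-201 and Smarcc2-202 share. The cassette form is among the features that differ between NT and addback libraries in the results, beside the ratio of Smarcc2-203 to Smarcc2-201. The cassette is shown first, in capitals between 15 bases of the neighbouring exons, above the junction that forms when it is skipped.
Smarcc2-202, cassette included: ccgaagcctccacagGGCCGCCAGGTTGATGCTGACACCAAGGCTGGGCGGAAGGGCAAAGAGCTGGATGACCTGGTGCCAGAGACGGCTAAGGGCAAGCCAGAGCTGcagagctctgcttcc
Smarcc2-201 and Smarcc2-203, cassette skipped: ccgaagcctccacagcagagctctgcttcc
The cassette also shifts the numbering of the codons that follow it. The codon that the labels' number S586 points to, in capitals within 30 bases on each side, is a serine codon in Smarcc2-202 (chr10:128482095-128482097) and an asparagine codon in the forms without the cassette (chr10:128482188-128482190).
Smarcc2-202, codon at that number: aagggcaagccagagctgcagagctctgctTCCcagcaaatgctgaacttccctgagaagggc
Smarcc2-201 and Smarcc2-203, codon at that number: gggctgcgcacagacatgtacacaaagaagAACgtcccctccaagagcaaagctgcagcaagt
The bases of that serine codon of Smarcc2-202 are codon 555 in Smarcc2-201 and Smarcc2-203. The numbering that the labels use for the substituted serine is not stated there.

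The 3 other Smarcc2 forms are short. Smarcc2-206 (735 bases, noncoding) joins a first exon of 140 bases of its own to 7 exons from the 5′ part of the coding forms. Smarcc2-205 (603 bases, 142 codons) has 5 exons and its own last exon of 125 bases. Smarcc2-204 (865 bases) keeps 273 bases of intron. Of the sequence words of 31 bases in each form, 50 occur in Smarcc2-201 alone, 99 in Smarcc2-202 alone, 371 in Smarcc2-203 alone and 140 in Smarcc2-206 alone, among 4503, 4532, 4002 and 705. No such word is shared by Smarcc2 and Smarcc1. How reads that fit several forms were divided is the estimate of the program kallisto, and the tables used here carry no error for that division.

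The 24 libraries held between 14510199 and 30135576 estimated counts, with 14510199 to 24024959 at DIV18. Markers of other cells were present, and some were lower with vector than in NT. The summed level of 6 astrocyte markers was 1253 to 1739 CPM in NT libraries and 727 to 1228 CPM in KO libraries with vector. The 8 oligodendrocyte-lineage markers summed to 131 to 213 CPM in NT and 114 to 152 CPM with vector, where Sox10 was at 0 in all 3 resting libraries. The 7 progenitor markers summed to 45.5 to 86.7 CPM in NT and 20.4 to 51.3 CPM with vector. The 8 neuron markers summed to 4976 to 5379 CPM in NT and 4368 to 5450 CPM with vector. The 6 microglia markers summed to 1.75 to 8.88 CPM and the 7 markers of fibroblasts and vessels to 6.99 to 18.7 CPM over all libraries. In the addback libraries astrocyte markers summed to 777 to 1271 CPM, oligodendrocyte-lineage markers to 106 to 162 CPM, progenitor markers to 24.1 to 56.7 CPM and neuron markers to 4609 to 6094 CPM. The part of these cells in the results below was not tested. In bulk libraries, fewer cells of a type and less RNA per cell cannot be told apart.

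The first comparison set KO neurons with vector against NT, called loss below. By the labels the guide and the vector change together in it and cannot be told apart. At rest, the Smarcc2 level was 265 and 237 CPM in NT and 47.1, 49.8 and 64.1 CPM in KO neurons with vector. Under KCl it was at 274 and 283 CPM in NT and at 49.1, 47.5 and 59.96 CPM with vector. Every vector library was below every NT library. In edgeR's quasi-likelihood test with Benjamini-Hochberg adjustment, Smarcc2 fell by 2.23 on the log2 scale at rest, with an SE of 0.14 and an adjusted p of 7.34e-08, and by 2.42 with KCl, with an SE of 0.14 and an adjusted p of 1.96e-08. Among 20940 genes tested, 5.90% were called at rest and 2.67% under KCl. With offsets for the mean effective length of the gene's transcripts in each library the log2 fold change was smaller, -1.27 at rest and -1.59 under KCl, both still called.

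**Figure D1:**
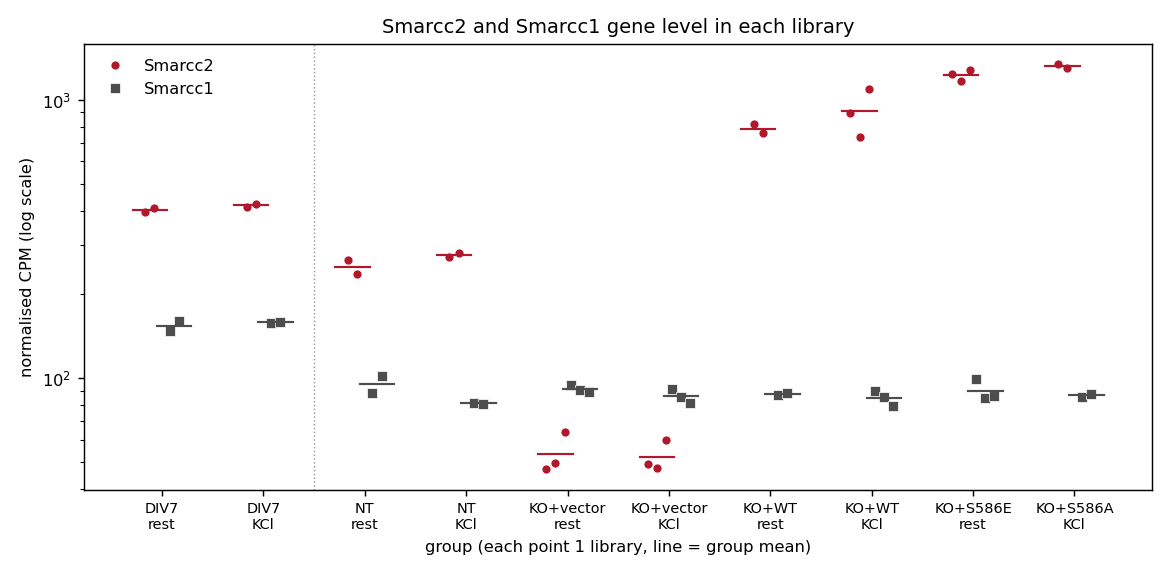
Normalised CPM (log axis) of Smarcc2 (circles) and Smarcc1 (squares) in each of the 24 libraries by group, with a line at each group mean and a dotted line between DIV7 and DIV18. Smarcc2 is lowest in the 6 KO libraries with vector and highest in the addback libraries, while Smarcc1 stays between 79.4 and 102 CPM at DIV18.

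All 3 full-length forms fell. Smarcc2-202, the cassette form, was at 31.3 and 26.3 TPM in resting NT libraries and at 3.64, 4.86 and 4.84 TPM in resting KO libraries with vector. Under KCl it was at 32.9 and 28.7 TPM in NT and at 2.57, 2.93 and 5.64 TPM with vector. The groups did not overlap in either state. On the transcript level edgeR gave log2 fold changes of -2.61 (SE 0.35) at rest and -3.12 (SE 0.36) under KCl, with adjusted p of 0.00733 and 0.00376. Of 59803 transcripts tested, 0.333% were called at rest and 0.0853% under KCl.

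Smarcc2-201 was at 15.4 and 13.0 TPM in resting NT libraries and at 2.83, 1.87 and 3.85 TPM with vector. Under KCl it was at 13.3 and 14.0 TPM in NT and at 4.52, 4.20 and 3.43 TPM with vector. Vector libraries lay below all NT libraries, with log2 fold changes of -2.23 (SE 0.24) at rest and -1.82 (SE 0.24) under KCl and edgeR adjusted p of 0.00227 and 0.0119. Smarcc2-203 was the lowest full-length form in every vector library and in every NT library. It was at 5.69 and 7.85 TPM in resting NT libraries against 0.378, 0.750 and 1.97 TPM with vector. Under KCl it was at 10.1 and 9.15 TPM against 1.64, 0.877 and 1.71 TPM. Again no library overlapped, and it fell by 2.64 on the log2 scale (SE 0.42) at rest and by 2.84 (SE 0.42) under KCl, with edgeR adjusted p of 0.0186 and 0.0253.

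The short forms did not pass edgeR's test of loss, although DESeq2 called 3 of these results. Of all 59803 transcripts, DESeq2 called 1459 at rest and 918 under KCl. Smarcc2-206 was at 3.69 and 1.38 TPM in resting NT libraries and at 10.9, 5.74 and 5.66 TPM with vector. Under KCl it was at 0.765 and 3.59 TPM in NT and at 7.76, 6.10 and 7.46 TPM with vector, so that every vector library was above every NT library. How many other transcripts separated in this way was not counted. The log2 fold change of Smarcc2-206 was 1.63 (95% interval 0.56 to 2.70, edgeR adjusted p = 0.252) at rest and 1.60 (0.50 to 2.70, adjusted p = 0.37) under KCl. DESeq2 called both, at 1.65 (adjusted p = 0.0249) and 1.61 (adjusted p = 0.0498). Counts behind these values were low, 10.0 to 55.7 in NT and 63.8 to 138 with vector. Smarcc2-205 was at 0.57 (-0.95 to 2.09) at rest and 0.26 (-1.27 to 1.78) under KCl on the log2 scale. Smarcc2-204 held 0 to 17.1 counts in NT libraries and 10.9 to 18.2 with vector, and its log2 fold change was 3.45 (1.44 to 5.46, edgeR adjusted p = 0.183) at rest and 0.69 (-0.98 to 2.36) under KCl. DESeq2 called the value at rest (3.57, adjusted p = 0.0248).

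The makeup of the gene differed between the groups. In NT libraries Smarcc2-202 held 49.5% to 53.7% of Smarcc2 TPM, with a median of 51.3% (n = 4). With vector it held 11.95% to 25.9%, with a median of 18.3% (n = 6). The difference of means was -32.2 percentage points (exact permutation test over libraries, two-sided, p = 0.00476, adjusted p = 0.0136 over 20 tests of 10 forms). This test pooled rest and KCl and treated each library as independent. In each state alone the difference kept its direction. There 3 vector libraries stood against 2 NT libraries, too few for this test to reach p under 0.05, so no call was possible. Taken from counts, which are not corrected for length, Smarcc2-202 held 55.8% to 59.5% in NT and 25.6% to 52.98% with vector. That difference was -17.5 points (exact permutation test, adjusted p = 0.0357). Smarcc2-206 moved the other way, from 1.25% to 6.20% in NT to 24.3% to 46.3% with vector, a difference of 29.9 points (exact permutation test, adjusted p = 0.0136). Of the counts this short form held 0.174% to 0.892% in NT and 6.34% to 15.7% with vector, 8.80 points more (exact permutation test, adjusted p = 0.0136). Smarcc2-203 held 9.26% to 16.5% in NT and 1.61% to 10.5% with vector, a difference of -8.35 points (exact permutation test, adjusted p = 0.0238). Smarcc2-204 held 0% to 1.72% in NT and 3.52% to 5.502% with vector, 3.97 points more (exact permutation test, adjusted p = 0.0136), and 1.43 points more by counts with the same adjusted p. Smarcc2-205 was 14.2 points and Smarcc2-201 -7.47 points from NT, which did not pass (exact permutation test, adjusted p = 0.0635 and 0.0762). By counts they were 3.79 and 7.20 points from NT (exact permutation test, adjusted p = 0.0529 and 0.333), so that Smarcc2-201 changed direction. The call for Smarcc2-203 ended when shares were taken from counts, with a difference of -3.75 points (adjusted p = 0.329). It also ended without NT resting library 2, either NT library under KCl, resting vector library 1 or any of the 3 vector libraries under KCl, with differences of -8.71 to -7.49 points.

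**Figure D2:**
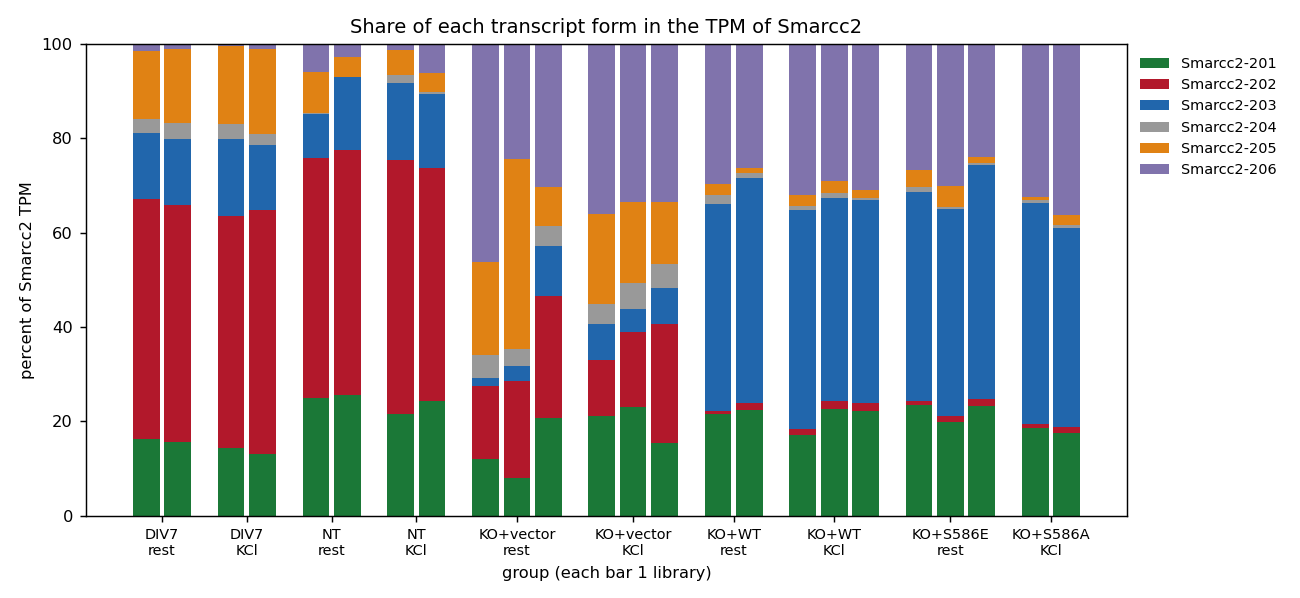
Percent of Smarcc2 TPM held by each of its 6 forms, 1 stacked bar per library. Smarcc2-202 holds near 50% in DIV7 and NT libraries, 11.95% to 25.9% with vector and under 2% in each of the 10 addback libraries, where Smarcc2-203 and Smarcc2-206 hold most of the rest with Smarcc2-201.

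Smarcc2-202 was also set against the 3 full-length forms alone, a measure chosen after the values were seen. Smarcc2-202 made up 55.3% to 59.8% of full-length Smarcc2 TPM in NT libraries. In the resting vector libraries it made up 53.1%, 65.0% and 45.4%, and under KCl 29.4%, 36.6% and 52.3%. The resting vector libraries lay on both sides of NT, and those under KCl were all below it. No test was made of this measure.

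The second comparison asked which forms the addbacks raised. The rule in use called a form addback-type where it was called higher than vector in each of the 4 addback comparisons, a description made from measured values. It took in Smarcc2-201 and Smarcc2-203, both without the cassette. Smarcc2-206 was called in 3 of the 4, and Smarcc2-202, Smarcc2-204 and Smarcc2-205 in none. Addback comparisons in the same state share their vector libraries, so these calls are not independent. The share of transcripts called was 0.0100% for WT at rest, 0.00669% for WT under KCl, 0.0234% for S586E and 0.0100% for S586A.

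As a gene, Smarcc2 was at 816 and 756 CPM with WT at rest and at 895, 737 and 1089 CPM with WT under KCl. It was at 1236, 1164 and 1276 CPM with S586E, and at 1340 and 1303 CPM with S586A. All 10 addback libraries lay above all NT and all vector libraries. Against vector the log2 fold change was 3.88 for WT at rest (SE 0.15, edgeR adjusted p = 8.06e-12) and 4.12 for WT under KCl (SE 0.14, adjusted p = 1.56e-12). It was 4.52 for S586E (SE 0.14, adjusted p = 4.03e-13) and 4.66 for S586A (SE 0.15, adjusted p = 4.71e-13). Few genes were called against vector, 0.0143% for WT at rest, 0.00955% for WT under KCl, 0.0191% for S586E and 0.00955% for S586A.

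Smarcc2-203 was the highest form in every addback library. It was at 76.0 and 95.1 TPM with WT at rest, and at 133, 88.5 and 137 TPM with WT under KCl. With S586E it was at 136, 136 and 178 TPM, and with S586A at 159 and 143 TPM. No addback library came near the 0.378 to 1.97 TPM of the vector libraries. The log2 fold changes against vector were 6.60 (SE 0.47, edgeR adjusted p = 1.97e-05) for WT at rest and 6.45 (SE 0.45, adjusted p = 1.12e-05) for WT under KCl. They were 7.22 (SE 0.47, adjusted p = 3.89e-06) for S586E and 7.06 (SE 0.48, adjusted p = 9.10e-06) for S586A.

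Smarcc2-201 was at 37.1 and 44.7 TPM with WT at rest, and at 49.0, 46.5 and 70.5 TPM with WT under KCl. With S586E it was at 71.9, 61.5 and 83.1 TPM, and with S586A at 63.5 and 59.7 TPM. Again no addback library overlapped the vector libraries, and the log2 fold changes were 4.06, 3.82, 4.70 and 4.24 in the same order (edgeR adjusted p of 5.54e-07 to 4.97e-06). The order of the 2 forms differed between groups. The ratio of Smarcc2-203 to Smarcc2-201 TPM was 1.89 to 2.72 in the 10 addback libraries, 0.370 to 0.763 in NT and 0.133 to 0.511 with vector.

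Smarcc2-202 stayed near its vector level in the addback libraries. It was at 1.11 and 2.68 TPM with WT at rest, at 3.33, 3.13 and 5.62 TPM with WT under KCl, at 2.59, 3.80 and 5.34 TPM with S586E and at 2.93 and 4.25 TPM with S586A. Except for WT at rest, where both libraries lay below the vector libraries of that state, the groups overlapped. Against vector the log2 fold change was -1.07 for WT at rest (95% interval -1.86 to -0.29, edgeR adjusted p = 0.746) and 0.17 for WT under KCl (-0.51 to 0.85, adjusted p = 1). It was -0.17 for S586E (-0.84 to 0.51, adjusted p = 1) and 0.27 for S586A (-0.48 to 1.03, adjusted p = 0.956). The intervals leave out a rise of the size that Smarcc2-201 and Smarcc2-203 showed. Of the full-length TPM, Smarcc2-202 made up 0.973% to 2.64% in the addback libraries.

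**Figure D3:**
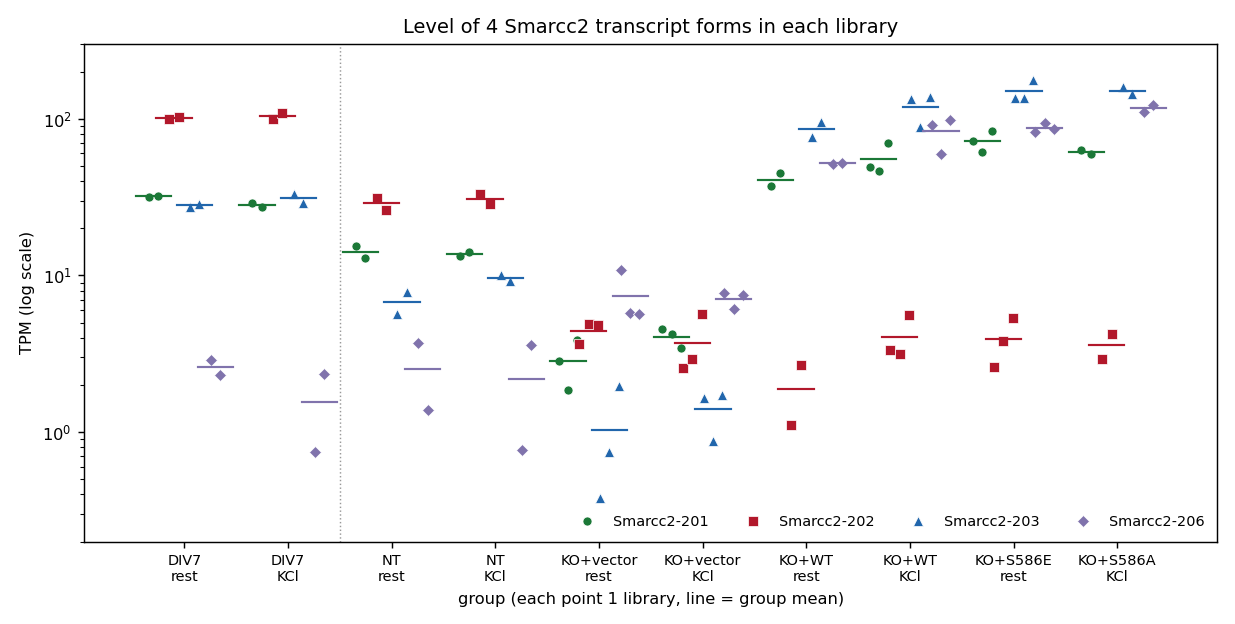
TPM (log axis) of 4 Smarcc2 forms in each library, with a line at each group mean. In the addback groups Smarcc2-203, Smarcc2-206 and Smarcc2-201 lie above NT, and Smarcc2-202 lies at 1.11 to 5.62 TPM, in the range of the vector libraries or below it.

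Smarcc2-206, the short noncoding form, was at 51.4 and 52.3 TPM with WT at rest and at 91.5, 59.6 and 98.9 TPM with WT under KCl. With S586E it was at 82.0, 93.6 and 85.9 TPM, and with S586A at 111 and 123 TPM. Every addback library was above every vector library. Against vector the log2 fold change was 3.03 for WT at rest (SE 0.44, edgeR adjusted p = 0.0504; DESeq2 adjusted p = 5.27e-08) and 3.60 for WT under KCl (SE 0.43, adjusted p = 0.00848). For S586E it was 3.60 (SE 0.43, adjusted p = 0.00808), and for S586A 4.36 (SE 0.46, adjusted p = 0.00176). As a share of Smarcc2 TPM it held 24.03% to 36.3% in the addback libraries, which overlapped the 24.3% to 46.3% of the vector libraries, with a difference of -4.199 points (exact permutation test, adjusted p = 0.209). Taken from counts, that difference was -3.59 points and passed (exact permutation test, adjusted p = 0.0020). Without correction for length this form was a smaller part of the gene. It was at 36.3 to 99.2 CPM in the addback libraries, where Smarcc2 as a whole was at 737 to 1340 CPM. All of its bases but a first exon of 140 lie in exons of the full-length forms, so its level rests on how kallisto divided shared reads.

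The shares of the other forms separated the groups. Smarcc2-203 held 42.2% to 49.7% of Smarcc2 TPM in the addback libraries, 39.2 points above vector, and Smarcc2-202 held 0.643% to 1.77%, 18.0 points below it in means of 1.21% and 19.2%. By counts Smarcc2-203 was 50.1 points above vector and Smarcc2-202 at -38.5 points from it, in means of 1.84% and 40.3%. Both differences in TPM had p = 0.000125 in the exact permutation test, the smallest that 10 against 6 libraries can give, and adjusted p = 0.000624. The test pooled both states and all constructs, treated each library as independent and used no pairs. In each state alone the share of Smarcc2-202 kept its direction but not its call. With fewer libraries there, the smallest p that the test can give is larger. Smarcc2-205 held 8.38% to 40.4% with vector and 0.720% to 4.43% with an addback, and Smarcc2-204 held 3.52% to 5.502% and 0.369% to 1.79%, with the same p each. By counts these 2 forms were at -4.07 and -1.33 points from vector. The TPM of Smarcc2-205 itself overlapped, at 1.57 to 9.54 with vector and 2.12 to 13.7 with an addback. Shares are parts of the gene total, which was 18.3 to 23.6 TPM with vector and 173 to 358 TPM with an addback. A form that keeps its own level thus has a smaller share with an addback. The lower shares of Smarcc2-202, Smarcc2-204 and Smarcc2-205 and their p therefore do not show that the levels of these forms fell.

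**Figure D4:**
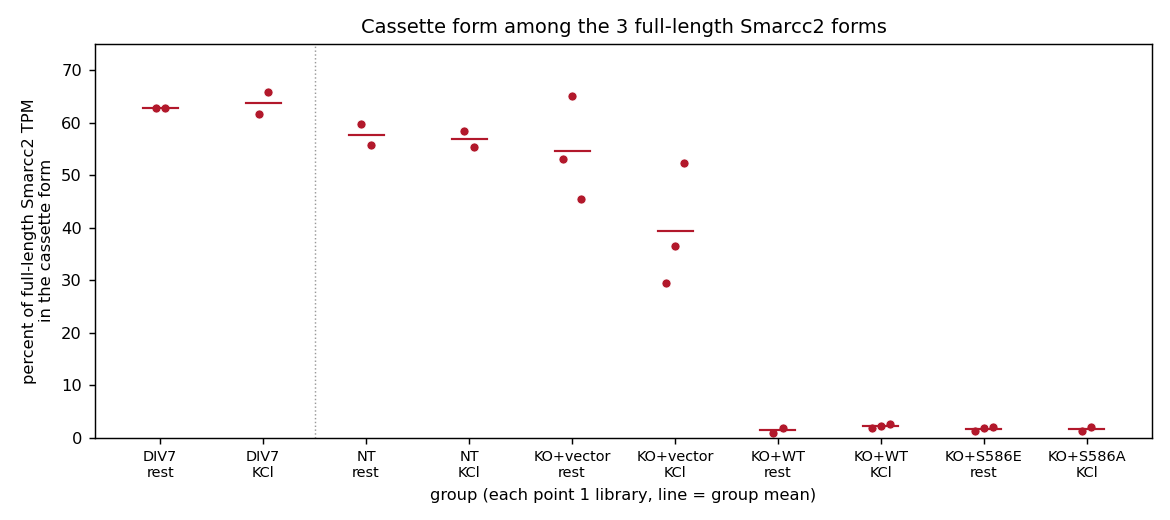
Percent of the TPM of the 3 full-length Smarcc2 forms held by Smarcc2-202 in each library, with a line at each group mean. It lies between 61.6% and 65.8% at DIV7, between 55.3% and 59.8% in NT, between 29.4% and 65.0% with vector and at or under 2.64% with an addback.

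Compared with NT, the addback cultures had more Smarcc2 in all and less of the cassette form. Astrocyte markers were lower as well, at 859 to 1271 CPM in resting addback libraries against 1324 to 1573 CPM in resting NT, and at 777 to 1056 CPM against 1253 to 1739 CPM under KCl, and their part in the result was not tested. On the gene level the log2 fold change against NT was 1.65 for WT at rest (SE 0.16, edgeR adjusted p = 5.75e-05) and 1.71 for WT under KCl (SE 0.15, adjusted p = 1.36e-05). It was 2.29 for S586E (SE 0.15, adjusted p = 1.58e-07) and 2.25 for S586A (SE 0.16, adjusted p = 4.64e-07). These 4 comparisons called 0.105%, 0.201%, 2.78% and 0.430% of genes in that order. Comparisons of an addback with vector and with NT share the addback libraries, so the values stand side by side. Comparisons with NT in the same state also share the NT libraries, so calls of a form in several of them are not independent.

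Smarcc2-202 was called lower than NT in all 4 comparisons, by log2 fold changes of -3.69, -2.95, -2.78 and -2.85 (edgeR adjusted p of 0.0138 to 0.0295). Smarcc2-203 was called higher in all 4, at 3.96, 3.61, 4.58 and 4.22 (adjusted p of 0.00298 to 0.0165). Smarcc2-206 was called higher in all 4, at 4.67, 5.20, 5.23 and 5.96 (adjusted p of 0.00298 to 0.0165). Smarcc2-201 was called in 3 of 4, at 2.00, 2.47 and 2.41, and for WT at rest it was at 1.83 (adjusted p = 0.066), which DESeq2 called (1.84, adjusted p = 5.41e-09). DESeq2 also called Smarcc2-204 higher than NT for WT at rest (5.40) and for S586E (4.78), which edgeR did not. In these 2 comparisons DESeq2 called 299 and 812 of 59803 transcripts. The share of transcripts called by edgeR was 0.00669%, 0.0100%, 0.0251% and 0.0217% for the 4 comparisons in the same order.

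Transcript calls changed with the libraries that entered the fit. Replicates varied more per transcript than per gene, with edgeR's common coefficient of variation at 68.3% and 14.6%. With only the 2 groups compared in the fit, 23 of the 32 calls of Smarcc2 forms in these 10 comparisons were lost, at adjusted p of up to 0.628, and none changed direction. All 32 held with DESeq2, which called 75 to 1459 of 59803 transcripts in these comparisons, where edgeR called 4 to 199. DESeq2 also called 7 of the 28 form results that edgeR did not. Of these, Smarcc2-206 for WT against vector at rest was called too without the filter on low counts (3.04), with median-of-ratios size factors (3.03) and without resting vector library 1 (3.41), and Smarcc2-201 for WT against NT at rest without the filter (1.84). Leaving out 1 library ended a call in 14 of the 32 at least once, also without a change of direction.

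**Figure D5:**
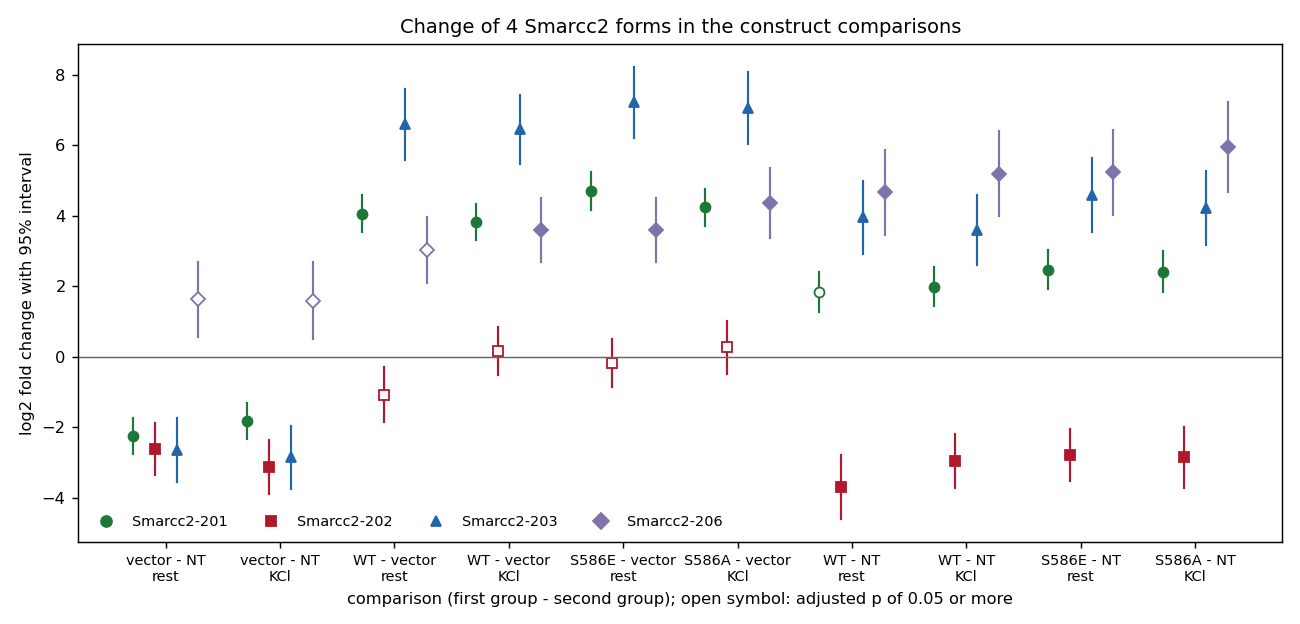
Log2 fold change with 95% interval of 4 Smarcc2 forms in the 10 construct comparisons at DIV18, filled where the adjusted p of edgeR was under 0.05. Smarcc2-202 falls with loss, lies near 0 against vector except for WT at rest, and stays below NT with each addback, while Smarcc2-201, Smarcc2-203 and Smarcc2-206 lie above vector.

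The third comparison set the substituted proteins beside WT at matched states. Smarcc2 was higher with S586E than with WT at rest in every library, 1164 to 1276 against 756 and 816 CPM, with a log2 fold change of 0.64 (95% interval 0.35 to 0.93, edgeR adjusted p = 0.114). With S586A it was at 1303 and 1340 CPM against 737 to 1089 CPM with WT under KCl, again without overlap, at 0.54 (0.26 to 0.83, edgeR adjusted p = 0.338). Groups of 2 and 3 libraries can fail to overlap by their order alone, and how many other genes did so was not counted. Neither the S586E nor the S586A difference passed. In each of these comparisons edgeR called 0% of genes, with 2696 and 1824 genes at an unadjusted p under 0.05 and 316 and 19 called by DESeq2. The S586E difference was called by DESeq2 (0.65, adjusted p = 0.00215) and with only the 2 groups in the fit (0.63, edgeR adjusted p = 0.0326). It was also called with the replicate block (0.54, edgeR adjusted p = 0.0487) and without the filter on low counts (0.64, edgeR adjusted p = 1.42e-08). The S586A difference was called with the block (0.66, edgeR adjusted p = 0.0112) and without the filter (0.56, edgeR adjusted p = 8.68e-07), but not by DESeq2 (adjusted p = 0.0691). Without the filter edgeR called 782 genes for S586E and 225 for S586A. Same-numbered libraries were not taken as pairs here, with r of 0.03 and 0.09 for S586E and -0.01 and 0.05 for S586A.

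No Smarcc2 form passed between S586E and WT, where 0% of transcripts were called by edgeR (3610 at an unadjusted p under 0.05, 362 by DESeq2), or between S586A and WT, where 0.00167% were. Log2 fold changes for S586E against WT were 0.64 (0.13 to 1.15) for Smarcc2-201, 0.63 (-0.23 to 1.48) for Smarcc2-203 and 0.91 (0.13 to 1.69) for Smarcc2-202. For S586A against WT they were 0.42 (-0.08 to 0.91), 0.61 (-0.22 to 1.44) and 0.10 (-0.65 to 0.85). S586E was measured only at rest and S586A only under KCl, so they were not compared with each other.

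The fourth comparison asked whether depolarization for 30 min changed either gene. Smarcc2 was not called in any group. Its log2 fold change was 0.15 in NT (95% interval -0.17 to 0.47), -0.04 with vector (-0.31 to 0.23), 0.21 with WT (-0.08 to 0.50) and 0.06 at DIV7 (-0.03 to 0.15). Depolarization called 0.00955% of genes in NT, 0.0716% with vector, 0.0430% with WT and 17.0% at DIV7. The response did not differ between vector and NT (-0.19, -0.61 to 0.23) or between WT and vector (0.25, -0.15 to 0.64) at a level that passed, and edgeR called 0% of genes in both, with 1845 and 768 at an unadjusted p under 0.05 and 9 and 1 called by DESeq2. None of the 24 tests of a Smarcc2 form passed in these 4 groups (lowest edgeR adjusted p = 0.239, 2 at an unadjusted p under 0.05), with 0.00167%, 0.0150%, 0.00334% and 1.36% of transcripts called in the order NT, vector, WT and DIV7.

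Smarcc1 did not follow Smarcc2. It was at 88.5 and 102 CPM in NT at rest and at 81.8 and 80.9 CPM in NT under KCl. With vector it was at 94.5, 90.7 and 89.0 CPM at rest and at 91.4, 85.9 and 81.8 CPM under KCl. With an addback it was at 79.4 to 99.4 CPM in all 10 libraries. At rest NT spanned the vector libraries on the low and the high side, and both WT libraries, at 87.4 and 88.8 CPM, lay just below the lowest vector library. Under KCl both NT libraries lay below the vector libraries, by a small margin, and the WT and S586A libraries overlapped vector. In the 10 construct comparisons the log2 fold change of Smarcc1 was -0.11 to 0.09, and the 95% intervals ran from -0.30 to 0.28. In all 18 comparisons none passed (lowest edgeR adjusted p = 0.646). The farthest from 0 was KCl against rest in NT, at -0.23 (-0.42 to -0.04, edgeR adjusted p = 1), and under KCl at DIV7 it was at 0.04 (-0.08 to 0.16).

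The main form of Smarcc1 was Smarcc1-201 (5717 bases, 1104 codons, 3′ UTR of 2265 bases). It held 60.5% to 67.5% of Smarcc1 TPM in NT, 50.3% to 66.5% with vector and 52.8% to 71.0% with an addback. Its level was 9.97 to 12.9 TPM in NT, 9.75 to 12.2 TPM with vector and 7.49 to 11.3 TPM with an addback, and these ranges overlapped. Smarcc1-204 (3538 bases, 1075 codons) ends earlier, with a 3′ UTR of 230 bases, and held 14.6% to 27.3%, 13.4% to 27.5% and 13.7% to 27.8% in the same order. Smarcc1-202, a fragment of 364 bases with its own first exon, held 5.75% to 17.6%, 6.21% to 19.2% and 1.98% to 21.3%. The single-exon form Smarcc1-209 held 1.01% to 5.43% in all DIV18 libraries. The 5 other forms stayed at or below 1.60 TPM in every library. No share of a Smarcc1 form passed (lowest adjusted p = 0.0926, exact permutation test), and edgeR called 0 of 123 tests of 7 Smarcc1 forms, with 1 at an unadjusted p under 0.05. DESeq2 called 0 of the 74 for which it gave an adjusted p.

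The ratio of the paralogs was taken over all forms in TPM, short and noncoding forms included. Smarcc1 stood at 0.267 to 0.377 of Smarcc2 TPM in NT, at 0.803 to 1.02 with vector and at 0.0385 to 0.0852 with an addback. At DIV7 it stood at 0.302 to 0.332, which overlapped NT. With the 3 full-length coding forms of each gene alone, a measure chosen after the values were seen, the ratio was 0.239 to 0.370 in NT, 1.15 to 2.32 with vector, 0.0546 to 0.0993 with an addback and 0.345 to 0.375 at DIV7. Smarcc1 was above Smarcc2 on this measure in each of the 6 vector libraries.

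The ages can only be set side by side, since age, RNA selection, DMSO and the guide change together and cannot be told apart. Smarcc2 was at 197 to 211 TPM at DIV7 and 50.7 to 61.5 TPM in NT at DIV18, and Smarcc1 at 60.4 to 67.8 and 15.5 to 19.1 TPM. In CPM the ages lay closer, at 397 to 424 and 237 to 283 for Smarcc2 and at 148 to 161 and 80.9 to 102 for Smarcc1. The size of the difference thus depends on the unit. Astrocyte markers summed to 474 to 564 CPM at DIV7 and 1253 to 1739 CPM in NT, and their part was not tested. Smarcc2-202 was the highest form at both ages, at 99.9 to 109 TPM at DIV7, and held 49.2% to 51.7% of the gene there. Smarcc2-205 held 14.5% to 18.0% at DIV7 and 3.95% to 8.55% in NT, and Smarcc2-201 held 13.0% to 16.2% and 21.6% to 25.7%, without overlap for either. How many other transcripts separated the ages in this way was not counted. The ratio of Smarcc2-203 to Smarcc2-201 was 0.859 to 1.14 at DIV7, above all NT libraries. Smarcc1-204 held 35.2% to 40.7% of Smarcc1 at DIV7, above the NT range.

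The 26 other subunits of a BAF list of 28 genes were set beside the pair. With loss at rest, 3 passed upward and 1 downward, 15.4% of the 26 beside the 5.90% of all genes called. Smarce1, a DNA-binding subunit, was at 0.45 (SE 0.09, edgeR adjusted p = 0.00897), Arid1a, a defining subunit of canonical BAF, at 0.41 (SE 0.10, adjusted p = 0.0197) and Smarcd3 at 0.52 (SE 0.15, adjusted p = 0.0486). Brd9, which marks the noncanonical complex, was at -0.36 (SE 0.10, adjusted p = 0.0469). With loss under KCl 1 passed, Smarca2, an ATPase, at -0.51 (SE 0.11, edgeR adjusted p = 0.0178), which is 3.85% of the 26 and near the 2.67% of all genes. The median over the 26 was -0.03 at rest and -0.02 under KCl, beside 0.02 over all genes in both. Against vector none of the 26 passed with any addback, and against NT 1 passed, Smarce1 with S586E at 0.36 (edgeR adjusted p = 0.0457), again near the 2.78% of all genes. Depolarization at DIV7 called 2 higher, Arid1a at 0.21 and Pbrm1 at 0.21, and 4 lower, of which Smarcd2 fell by 1.12 (edgeR adjusted p = 0.00173), Dpf2 by 0.47, Bicra by 0.44 and Smarcd1 by 0.30. These 6 are 23.1% of the 26, near the 17.0% of all genes called there.

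The genes most like the pair across libraries were found by Pearson's r of log2(CPM + 0.5) among 9134 genes with a mean of at least 10 CPM. Over the 20 DIV18 libraries these were Atp5d (r = 0.78), Paics (0.77) and Grcc10 (0.77) for Smarcc2, and Hs6st1 (0.76), Kctd6 (0.76) and Mfsd5 (0.75) for Smarcc1. Over the 10 NT and vector libraries the 3 nearest to Smarcc2 were Tanc1, Paqr8 and Chpf, each at r = 0.98. Those 10 libraries fall into 2 groups by guide and vector, and over the 20 libraries Smarcc2 also differed by construct. A gene that differs between such groups can reach a high r. These values are descriptions of the libraries.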

How the data were processed

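The authors' deposited tables give, per the file headers, an estimated count, a TPM, a length and an effective length for each transcript and library, in the layout of kallisto. Cutadapt, FastQC and kallisto are named in the submitters' processing notes, and the annotation they used is not given in the sources used here. Of 142552 transcripts, 141429 (99.2%) matched GENCODE M21 (GRCm38), and the rest held at most 0.467% of counts. The estimated counts deposited by the authors were rounded and tested per gene and per transcript with edgeR 4.0.16 in R 4.3.3. The quasi-likelihood F test was used, two-sided, with TMM, filterByExpr and Benjamini-Hochberg adjustment over all features, called at adjusted p under 0.05. DIV18 libraries were fitted together (8 groups, no block) and DIV7 libraries alone. The deposited TPM gave levels and shares. Shares were tested by exact permutation over libraries, with states and addback constructs pooled and no pairs used.

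Forms named reach a mean of 1 TPM in any group. Called genes of the BAF list and the 3 most alike genes were also named. The members and lists were chosen with earlier results of these data known. Other settings tried were a replicate block, DESeq2 1.42.0, length offsets, size factors by median of ratios, fits of only the groups compared, no filter on low counts, shares of counts, each state alone and leaving out each library. Tests were checked on simulated counts. A planned test of transcript usage called too many unchanged genes there and was not used.

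Same-numbered libraries were checked for pairing by correlating their deviations from group means over genes. With 3 pairs, every r was over 0.1 for WT against vector under KCl and for S586E against vector (0.10 to 0.29). The numbers were taken as pairs there by this cutoff, although the main fit and the share tests used no pairs. In the other 14 comparisons r was -0.05 to 0.24 and the numbers were not taken as pairs. Among these, WT against NT had r of 0.10 to 0.12 but only 2 pairs.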

Additional observations from a re-analysis of the deposited data

Results flagged for a closer look

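In 6 of 60 sets of 4 to 10 libraries, made by joining both states (and, for addbacks, all constructs), 1 library lay far from the others by Dixon's criterion, of which chance gives about 1 in 20. The labelled groups hold 2 or 3 libraries and were not looked at alone. Smarcc2-203 held 9.26% of Smarcc2 TPM in NT resting library 1, below the other NT libraries at 15.5% and above. At DIV7 it held 16.4% in depolarized library 1, with the next library at 14.0%. Smarcc2-205 held 40.4% in vector resting library 2, with the next vector library at 19.6%. Smarcc1-202 held 6.21% of Smarcc1 TPM in vector library 1 under KCl, with the next vector library at 14.8%. Smarcc1-204 held 35.2% in DIV7 resting library 1, with the next at 40.1%. Smarcc1 was at 99.4 CPM in S586E library 1, with the next addback library at 89.7 CPM.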

How the results depend on the processing

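Every call of Smarcc2 as a gene in the 10 construct comparisons held in every setting, leave-one-out included. With length offsets the changes on loss were -1.27 at rest and -1.59 under KCl, and without 1 library -2.37 to -2.14 and -2.53 to -2.35. The Smarcc2 difference of S586E from WT became a call with DESeq2 (0.65), with only the groups compared (0.63), with the replicate block (0.54) and with no low-count filter (0.64). That of S586A from WT became one with the replicate block (0.66) and with no filter (0.56). The causes were not tested. Uncalled values of Smarcc1 changed sign with length offsets, to 0.13 for loss at rest, -0.11 for S586A against vector, 0.087 for S586E against NT and -0.028 for S586A against WT. With the replicate block the Smarcc1 values for S586A were -0.026 against vector and -0.000125 against WT, and with only the groups compared it was -0.0094 against vector. Without 1 library, uncalled values crossed 0. For Smarcc1 they ran from -0.16 to 0.044 for loss at rest, -0.068 to 0.019 for WT against vector under KCl, -0.094 to 0.022 for S586E and -0.031 to 0.049 for S586A against vector. They were -0.18 to 0.029 for S586E against NT, -0.041 to 0.075 for S586E and -0.0082 to 0.074 for S586A against WT, -0.017 to 0.10 for KCl at DIV7 and -0.015 to 0.070 for the response of WT against vector. For Smarcc2 under KCl with vector the range was -0.15 to 0.11.

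Of the 32 calls of Smarcc2 forms, 23 were lost with only the groups compared and 2 with the replicate block, none with DESeq2, median-of-ratios size factors or no filter. DESeq2 called 7 of the 28 others. Leaving out 1 library ended 14 of them. Smarcc2-202 against NT was lost without any 1 of the 3 S586E libraries (-2.95 to -2.60) or either S586A library or NT library 2 under KCl (-3.17 to -2.58). It was also lost without WT resting library 1 (-3.31) and without WT library 1 or 2 under KCl (-2.81 to -2.79). The fall of Smarcc2-203 on loss was lost at rest without NT library 2 (-2.38) or vector library 2 (-2.45), and under KCl without NT library 2 or any vector library (-2.97 to -2.60). The fall of Smarcc2-201 on loss under KCl was lost without NT library 2 or vector library 3 (both -1.69). Against NT, calls were lost for Smarcc2-203 without either resting NT library for WT (3.73 and 4.22), without either NT library or WT library 1 or 3 under KCl for WT (3.51 to 3.62) and without either NT library for S586A (4.21 and 4.24). So were Smarcc2-201 without either NT library for WT under KCl (1.87 and 2.13) and for Smarcc2-206 without resting NT library 2 for WT (4.13). Smarcc2-206 against vector was lost without any vector library under KCl for WT (3.53 to 3.66) and without resting vector library 2 for S586E (3.43). Uncalled changes of Smarcc2-202 against vector ran from -0.14 to 0.58 for WT under KCl, -0.34 to 0.015 for S586E and -0.046 to 0.69 for S586A. Those of Smarcc2-204 on loss under KCl ran from -0.029 to 2.24. Those of Smarcc2-205 ran from -0.18 to 1.31 for loss at rest, -1.26 to 0.30 for WT and -0.19 to 1.44 for S586A against vector, and -0.69 to 0.86 for WT against NT at rest. The share of Smarcc2-202 kept its direction in each state alone but not its call, at -30.7 and -33.8 points for loss and -19.6 and -16.4 points for the addbacks at rest and under KCl, where fewer libraries entered. Uncalled shares that changed sign were Smarcc2-201 in counts (7.20 points on loss, -2.66 with addbacks) and with addbacks under KCl alone (-0.16). So did, on loss, Smarcc1-202 (-0.34) and Smarcc1-204 (0.20) under KCl alone and Smarcc1-209 (-0.23) at rest alone, and Smarcc1-209 with addbacks under KCl alone (0.097; -0.39 to 0.36 without 1 library).

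Counts over all genes, with their range over settings, were 1236 (225 to 2016) for loss at rest, 560 (278 to 1437) for loss under KCl, 3 (2 to 604) for WT against vector at rest, 2 (2 to 127) for the same under KCl, 4 (2 to 315) for S586E against vector, 2 (2 to 531) for S586A against vector, 22 (17 to 378) for WT against NT at rest, 42 (5 to 704) for the same under KCl, 583 (168 to 1582) for S586E against NT. They were 90 (12 to 653) for S586A against NT, 0 (0 to 782) for S586E against WT, 0 (0 to 225) for S586A against WT, 2 (0 to 192) for KCl in NT, 15 (13 to 515) for KCl with vector, 9 (5 to 196) for KCl with WT, 3371 (2217 to 5857) for KCl at DIV7, 0 (0 to 448) for the response of vector against NT, 0 (0 to 116) for the response of WT against vector. Over transcripts, in the same order up to KCl at DIV7, they were 199 (0 to 1459), 51 (0 to 918), 6 (0 to 367), 4 (4 to 75), 14 (2 to 158), 6 (3 to 383), 4 (0 to 299), 6 (0 to 371), 15 (1 to 812), 13 (1 to 423), 0 (0 to 362), 1 (0 to 191), 1 (0 to 156), 9 (1 to 286), 2 (0 to 170) and 722 (1 to 8190). The block changed no call of either gene where numbers were taken as pairs. In the other 14 comparisons they were not taken as pairs (r of -0.05 to 0.24). The planned usage test and its 2 alternatives were not run.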
